A study of Mus musculus with 6 samples.

Results

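The BAF complexes are ATP-dependent chromatin remodellers that slide or evict nucleosomes, and several of their subunits come from small families of paralogs. As a cortical progenitor leaves the cell cycle and becomes a neuron, progenitor forms of these subunits are exchanged for neuronal forms, while the ATPase and core subunits are kept. The genes described here are 10 of the 17920 genes listed in the table, chosen by name for their part in this known exchange. The progenitor forms are Actl6a, the actin-related subunit BAF53a, Phf10 and Dpf2, which carry PHD fingers that bind histone tails, and Ss18, a subunit best known from its fusion in synovial sarcoma. The neuronal forms are Actl6b, the BAF53b paralog of Actl6a, Dpf1 and Dpf3, relatives of Phf10 and Dpf2, and Ss18l1, the calcium-responsive transactivator related to Ss18. Smarca4, the ATPase Brg1, and Smarcb1, a core subunit that contacts the nucleosome, are shared by both forms of the complex. All 10 passed the filter on low counts and were among the 13669 genes tested.

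The question put to these genes was how their transcripts stood after a reduction of Ybx1, an RNA-binding protein that reads 5-methylcytosine in mRNA. According to the methods of the study, cortical cells of mouse embryos at stage E13.5 were cultured and infected with lentivirus. The virus carried a short hairpin RNA against Ybx1 or a control hairpin, and puromycin was then used to remove cells without virus. The results of the study call the cultured cells neural stem cells, and a figure legend calls them cortical progenitors. The 3 libraries from cells with the Ybx1 hairpin are called KD and the 3 controls WT, as in the sample titles, and both groups thus carry a virus and were exposed to puromycin. The labels give brain as the tissue, no strain, and a WT or KD genotype, the design text speaks of a deletion, and which of the Ybx1 hairpins was used in these libraries is not stated. The methods describe the replicates as independent experiments, and the labels do not tie a library to a litter or a culture, so p values measure the spread between these libraries.

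Ybx1 (Entrez Gene 22608) had 641, 630.4 and 687 TPM in WT replicates 1, 2 and 3 and 106, 100.2 and 168 TPM in KD replicates 1, 2 and 3. TPM, a unit that sums to the same total in every library, divides by transcript length, so levels of different genes can be compared on it. The targeted transcript thus fell in all KD libraries, with a fitted log2 difference of -2.43 ± 0.18 (SE) and an adjusted p of 1.8e-04 (edgeR, quasi-likelihood F-test, p values adjusted by the method of Benjamini and Hochberg over all genes tested), and it was highest among them in KD replicate 3. The libraries held 16294635 to 16497505 estimated counts. The summed level of 4 Y-linked genes was 0.52 and 1.01 TPM in replicate 2 of WT and KD and 48.4 to 79.1 TPM in the other libraries, so results are also given below without that pair. Over all genes, 24% were called at an adjusted p of 0.05, 12% higher and 11.9% lower in KD, and the median log2 difference was -0.001. Markers of the cortex were present in every library, with 318 to 477 TPM summed over 5 cortical identity genes in WT and 494 to 637 TPM in KD. Neuron markers summed to 7248 to 7903 TPM in WT and 6624 to 7561 TPM in KD, against 793 to 861 TPM and 939 to 1235 TPM for 12 genes of cycling progenitors. The cultures therefore held transcripts of both cell states, and in bulk RNA fewer cells of a type and less RNA per cell cannot be told apart. Microglia, endothelial and blood, and fibroblast-like markers each summed to at most 5.71 TPM in any library.

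In neurons, miR-9-3p (also known as miR-9*) is known to repress Actl6a together with miR-124 during the exchange. Its mature sequence in RefSeq, which is the same at 3 loci of the GRCm38 mouse genome, is shown with the seed, bases 2 to 8, in capitals, above the part of the Actl6a 3' UTR that holds the complement of the seed, also in capitals.
miR-9-3p: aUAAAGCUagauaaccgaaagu
Actl6a 3' UTR site (GRCm38, chr3:32726628-32726655, plus strand): ctcaacgtctgtAGCTTTAgtacactca
This match starts at base 38 of the 371-base 3' UTR of the Actl6a-201 transcript, and it is the only match in the 3' UTRs of the 10 genes, taking for each gene the transcript with the longest coding sequence. The letters AGCTTTA occur in the 3' UTR of 10.2% of 20533 coding genes. The miRNAs themselves were not measured in these mRNA libraries.

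The promoters of progenitor and neuronal paralogs are shown because Y-box proteins, the family of Ybx1, were first known for binding the Y-box, an inverted CCAAT element. In cultured cortical progenitors the study found Ybx1 protein mostly in the cytoplasm, and it proposes that a role in transcription may be questionable. The promoter of Ss18 is not reported here. RefSeq promoters (GRCm38.p6, 250 bases before to 50 bases after the start) were taken for 9 of the 10 genes. They were searched on both strands for CCAAT and for the Y-box, spelled CTGATTGG, whose last 5 letters are CCAAT read on the other strand. The promoters of Actl6a and Dpf2 and of their neuronal relatives Actl6b and Dpf3 follow, written along the strand of the gene, with either motif in capitals.
Actl6a promoter (chr3:32708296-32708595, plus strand): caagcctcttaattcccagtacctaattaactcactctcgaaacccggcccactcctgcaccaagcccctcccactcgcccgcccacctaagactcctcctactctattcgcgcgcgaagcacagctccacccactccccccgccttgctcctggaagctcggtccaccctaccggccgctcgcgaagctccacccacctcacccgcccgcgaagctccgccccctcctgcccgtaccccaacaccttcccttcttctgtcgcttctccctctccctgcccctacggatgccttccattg
Dpf2 promoter (chr19:5912822-5913121, minus strand): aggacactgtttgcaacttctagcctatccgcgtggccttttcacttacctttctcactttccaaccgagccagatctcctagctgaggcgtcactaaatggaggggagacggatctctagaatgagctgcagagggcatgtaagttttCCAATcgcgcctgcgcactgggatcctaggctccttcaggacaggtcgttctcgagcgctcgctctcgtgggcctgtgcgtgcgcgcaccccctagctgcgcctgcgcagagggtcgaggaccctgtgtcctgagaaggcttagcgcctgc
Actl6b promoter (chr5:137553296-137553595, plus strand): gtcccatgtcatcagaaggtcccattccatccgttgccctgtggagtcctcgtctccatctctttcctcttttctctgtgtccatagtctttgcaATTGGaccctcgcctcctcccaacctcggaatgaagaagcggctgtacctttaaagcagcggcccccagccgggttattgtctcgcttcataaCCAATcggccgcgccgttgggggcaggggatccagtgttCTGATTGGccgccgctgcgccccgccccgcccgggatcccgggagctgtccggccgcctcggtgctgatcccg
Dpf3 promoter (chr12:83487687-83487986, minus strand): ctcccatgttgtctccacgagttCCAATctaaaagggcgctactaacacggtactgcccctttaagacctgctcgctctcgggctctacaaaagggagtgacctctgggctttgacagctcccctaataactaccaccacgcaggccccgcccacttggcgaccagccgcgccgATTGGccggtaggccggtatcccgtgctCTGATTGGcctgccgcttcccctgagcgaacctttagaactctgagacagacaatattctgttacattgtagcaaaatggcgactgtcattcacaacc
CCAAT in either direction was found in 4 of the 9 promoters, those of Dpf2, Actl6b, Dpf1 and Dpf3, and in 37.4% of 32841 mouse promoters of the same length. The Y-box was found in 4.1% of all promoters. It was found in Actl6b, starting 23 bases before the start used by the promoter entry, and in Dpf3, starting 48 bases before it. For Actl6b the start of the promoter entry lies inside the gene span given below. A match is a description of letters and does not show binding.

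The transcripts of all 4 progenitor forms were higher in KD, those of the shared subunits Smarca4 and Smarcb1 were 1.27- and 1.17-fold higher, and none of the 4 neuronal forms was called. Thus 6 of the 10 genes were called higher and 0 lower, beside 12% and 11.9% of all genes tested. In the same 6 genes every KD library lay above every WT library on normalised counts scaled to library size (CPM), a pattern seen in 21% of all genes, and none of the 10 showed the reverse, seen in 20.6%. The median log2 difference was 0.50 over the progenitor forms, -0.02 over the neuronal forms and 0.29 over the shared subunits.

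**Figure D1:**
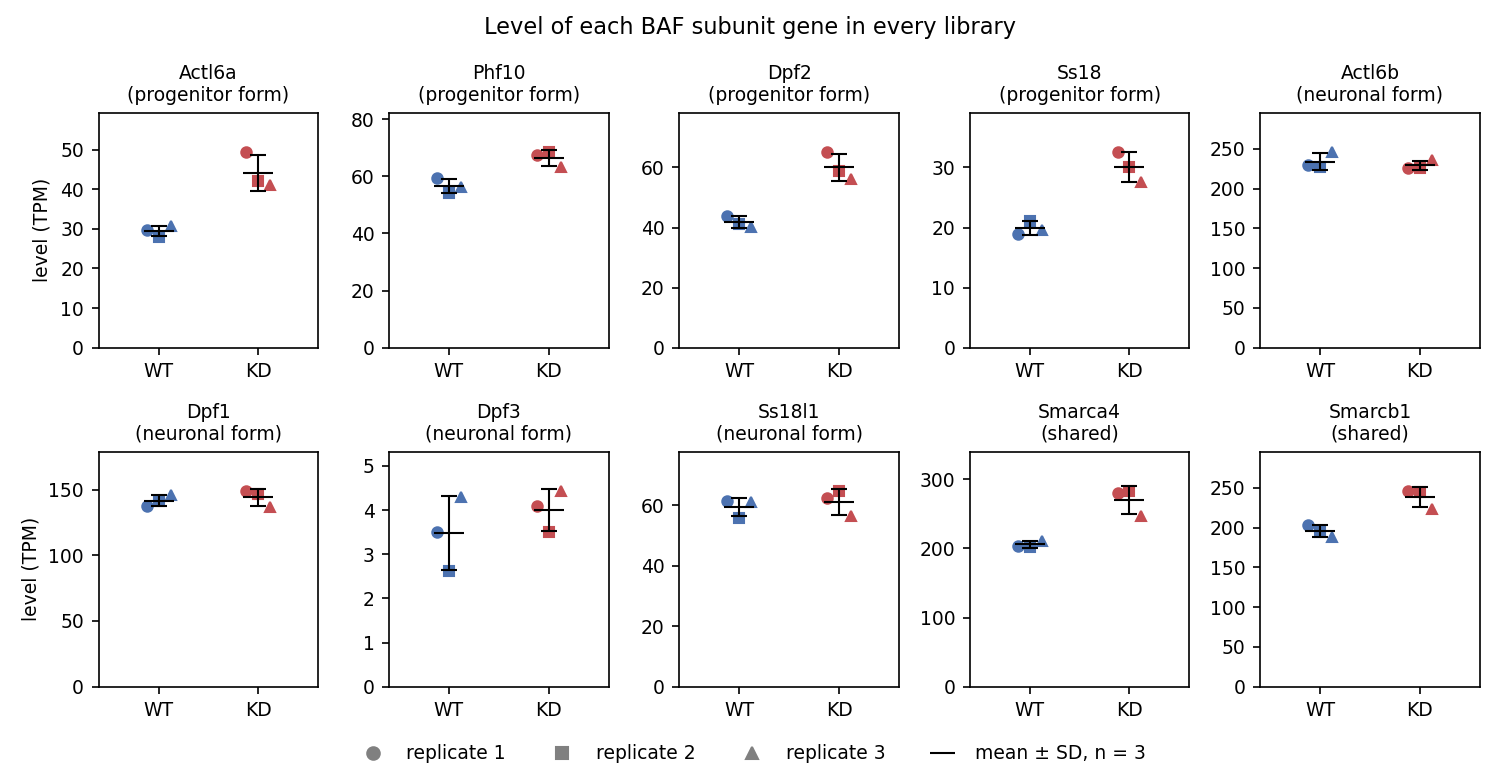
Level of each of the 10 BAF subunit genes in TPM (linear axis from 0) in the 3 WT and 3 KD libraries, with points for libraries and bars for mean ± SD. The KD points of the progenitor forms and of the shared subunits lie above all WT points, whereas the points of the neuronal forms overlap.

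Actl6a (Entrez Gene 56456, chr3:32708546-32726973) stood at 29.7, 28.0 and 30.6 TPM in WT replicates 1 to 3 and at 49.4, 42.0 and 41.0 TPM in KD replicates 1 to 3. The groups did not overlap, and KD replicate 1 was the highest. The mean went from 29.45 ± 1.32 to 44.1 ± 4.56 TPM (SD, n = 3). On counts, the fitted level was 1.44-fold higher in KD (95% interval 1.27 to 1.64), a log2 difference of 0.53 ± 0.08 (SE) with an edgeR adjusted p of 0.00269. This is the gene with the miR-9-3p seed match shown above. Its exons share up to 452 bases with Mrpl47, a mitochondrial ribosomal protein gene on the opposite strand, and without stated strand-specific counting reads from that stretch cannot be assigned with certainty. Mrpl47 itself differed by 0.20 ± 0.11 (log2, SE) with an edgeR adjusted p of 0.21.

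Ss18 (Entrez Gene 268996, chromosome 18), the progenitor form paired with Ss18l1, had 18.9, 21.2 and 19.65 TPM in WT replicates 1 to 3 and 32.55, 30.1 and 27.6 TPM in KD replicates 1 to 3. It had the largest fold of the 10 genes, 1.46 (95% interval 1.3 to 1.64), with a log2 difference of 0.55 ± 0.07 (SE) and an edgeR adjusted p of 0.00182. No library of either group reached into the range of the other.

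Dpf2 (Entrez Gene 19708, chr19:5896516-5912871), the PHD finger subunit found in canonical BAF complexes of many tissues, was at 44.0, 41.3 and 40.1 TPM in WT replicates 1 to 3. In KD replicates 1 to 3 it was at 65.1, 58.9 and 56.2 TPM. All KD values lay above all WT values. The fit gave a 1.39-fold higher level in KD (95% interval 1.25 to 1.53), with a log2 difference of 0.47 ± 0.07 (SE) and an edgeR adjusted p of 0.00195.

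Phf10 (Entrez Gene 72057, chr17:14944994-14961260), the BAF45a subunit of the PBAF form of the complex, moved least among the progenitor forms. Its levels were 59.2, 54.2 and 56.35 TPM in WT replicates 1 to 3 and 67.3, 68.45 and 63.2 TPM in KD replicates 1 to 3. The groups again did not overlap. The fold was 1.12 (95% interval 1.03 to 1.21), the log2 difference 0.16 ± 0.05 (SE) and the edgeR adjusted p 0.0472, just inside the threshold. The interval of its log2 difference, 0.05 to 0.28, lay below those of Actl6a (0.35 to 0.71), Dpf2 (0.32 to 0.62) and Ss18 (0.38 to 0.72). The differences between these genes were not tested. The call was kept in 7 of 17 alternative analyses. It was lost on leaving out any single library, with edgeR adjusted p of 0.068, 0.146 and 0.0815 where the library left out was WT replicate 1, 2 or 3 and of 0.0959, 0.156 and 0.0759 where it was KD replicate 1, 2 or 3, and DESeq2 gave an adjusted p of 0.12. The estimated counts of Phf10 were not whole in 4 of 6 libraries, as happens where reads also match other sequences and are shared out. Its exons share up to 176 bases with 1600012H06Rik on the opposite strand, a gene that differed by -0.07 ± 0.09 (log2, SE; edgeR adjusted p = 0.603). Shorter overlaps are annotated for Dpf2 (50 bases with Gm42067) and Dpf1 (96 bases with Gm44632), both on the opposite strand, and for Smarca4 (99 bases with Gm27373 on the same strand).

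The neuronal forms were more abundant than their progenitor counterparts except for Dpf3, and their levels overlapped between the groups. Actl6b (Entrez Gene 83766, chr5:137553361-137569582), which is expressed in postmitotic neurons, had 229, 227 and 246 TPM in WT replicates 1 to 3 and 226, 227 and 236 TPM in KD replicates 1 to 3. Its fold was 0.95 with a 95% interval of 0.88 to 1.03 and an edgeR adjusted p of 0.346. In both groups replicate 3 was the highest library.

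Dpf1 (Entrez Gene 29861, chr7:29303952-29317592), the BAF45b subunit, had 138, 141 and 146 TPM in WT replicates 1 to 3 and 149, 147 and 137 TPM in KD replicates 1 to 3. Its fold was 0.98 (95% interval 0.91 to 1.06) with an edgeR adjusted p of 0.705. Ss18l1 (Entrez Gene 269397, chr2:180042483-180070201), needed for activity-dependent dendrite growth, had 61.3, 55.9 and 60.9 TPM in WT replicates 1 to 3 and 62.3, 64.6 and 56.3 TPM in KD replicates 1 to 3. Its fold was 0.99 (95% interval 0.91 to 1.09) with an edgeR adjusted p of 0.935. In both genes the KD values overlapped with those of WT, and the sign of the small difference turned under other settings.

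Dpf3 (Entrez Gene 70127, chr12:83213751-83487736), the BAF45c subunit, was the scarcest of the 10 genes and the least precisely measured. It had 67, 57 and 81 estimated counts in WT replicates 1 to 3 and 80, 69 and 79 in KD replicates 1 to 3, or 3.47 ± 0.84 and 4.01 ± 0.471 TPM (SD, n = 3). Its fold was 1.09, but the 95% interval of 0.84 to 1.42 covered the fold of Dpf2, and the edgeR adjusted p was 0.614. At this depth a rise of the size seen in Dpf2 could not be told from no change. Of the 4 neuronal forms, 0 had an unadjusted p below 0.05 in edgeR, and 0 were called by DESeq2, limma-voom or limma-trend.

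Smarca4 (Entrez Gene 20586, chr9:21616106-21704230) stood at 204, 202 and 211 TPM in WT replicates 1 to 3 and at 281, 283 and 246 TPM in KD replicates 1 to 3. KD replicate 3 was closest to the controls. The ATPase transcript was 1.27-fold higher (95% interval 1.17 to 1.37), with a log2 difference of 0.34 ± 0.05 (SE) and an edgeR adjusted p of 0.00241. Smarcb1 (Entrez Gene 20587, chr10:75896769-75921614) stood at 204, 195 and 189 TPM in WT replicates 1 to 3 and at 246, 245 and 224 TPM in KD replicates 1 to 3. It was 1.17-fold higher (95% interval 1.08 to 1.27), with an edgeR adjusted p of 0.0164. That call was lost when WT replicate 2 (adjusted p = 0.0577), KD replicate 1 (0.055) or KD replicate 2 (0.0682) was left out. Smarca2 (Brm), the other ATPase of the family, had 282 ± 18.2 TPM in WT and 331 ± 25.0 TPM in KD and was not called (edgeR adjusted p = 0.0868), but it was with the replicate number as a block (adjusted p = 0.00239).

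**Figure D2:**
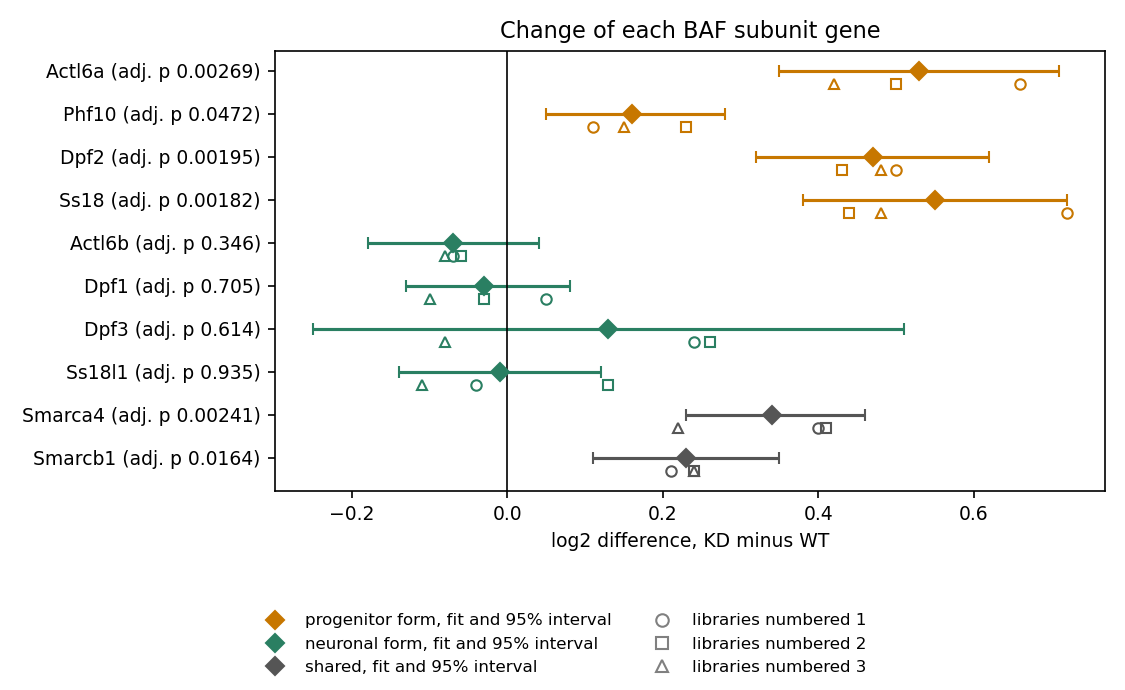
Log2 difference of KD minus WT for each gene, with filled diamonds and bars for the fitted value and its 95% interval and open symbols for the difference between libraries of the same number. Intervals of the 4 progenitor forms and the 2 shared subunits lie above 0, and those of the 4 neuronal forms cross it.

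For every progenitor form and both shared subunits, all 3 same-numbered pairs of libraries were higher in KD, which follows from the groups not overlapping. Actl6b was lower in 3 of 3 pairs, with differences of -0.07, -0.06 and -0.08 on the log2 CPM scale. With the replicate number as a block, 36.6% of all genes were called, and each of the 10 genes kept its call. Without the pair of replicate 2 libraries, which leaves 2 against 2, the fit called Ss18 alone of the 10 genes (edgeR adjusted p = 0.0489). Over all genes it called 135 higher and 93 lower, beside 1646 and 1631 with all libraries. The edgeR adjusted p was 0.0605 for Actl6a, 0.0593 for Dpf2, 0.345 for Phf10, 0.0792 for Smarca4 and 0.177 for Smarcb1. The log2 differences without that pair were 0.54 for Actl6a, 0.60 for Ss18, 0.49 for Dpf2 and 0.13 for Phf10. They were 0.31 for Smarca4 and 0.22 for Smarcb1. With all libraries the values were 0.53, 0.55, 0.47, 0.16, 0.34 and 0.23, in the same order.

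The balance of neuronal and progenitor forms was described by the ratio of their transcripts within a library, on the TPM scale. In bulk RNA of mixed cells this ratio cannot tell an exchange of subunits within cells from a different mix of cells. Neuronal transcripts were the more abundant in every library, and all 3 ratios were smaller in KD. Actl6b exceeded Actl6a by 7.71-, 8.12- and 8.04-fold in WT replicates 1 to 3 and by 4.58-, 5.4- and 5.75-fold in KD replicates 1 to 3. Ss18l1 exceeded Ss18 by 3.24-, 2.64- and 3.1-fold in WT and by 1.91-, 2.15- and 2.04-fold in KD. The sum of Dpf1 and Dpf3 over the sum of Phf10 and Dpf2 was 1.37, 1.5 and 1.56 in WT and 1.15, 1.18 and 1.18 in KD. The groups did not overlap in any of the 3 ratios. The log2 ratio fell by 0.61 for Actl6b over Actl6a (SD between pairs 0.13, n = 3). It fell by 0.55 for Ss18l1 over Ss18 (SD 0.23) and by 0.33 for the PHD finger subunits (SD 0.08). Expressed as a share, Actl6b made up 88.8% ± 0.28 of the 2 paralogs' transcripts in WT and 83.9% ± 1.6 in KD (SD, n = 3). These ratios reuse the values given above, so they are no separate evidence, and with 3 libraries against 3 an exact permutation test cannot give a p below 0.1.

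**Figure D3:**
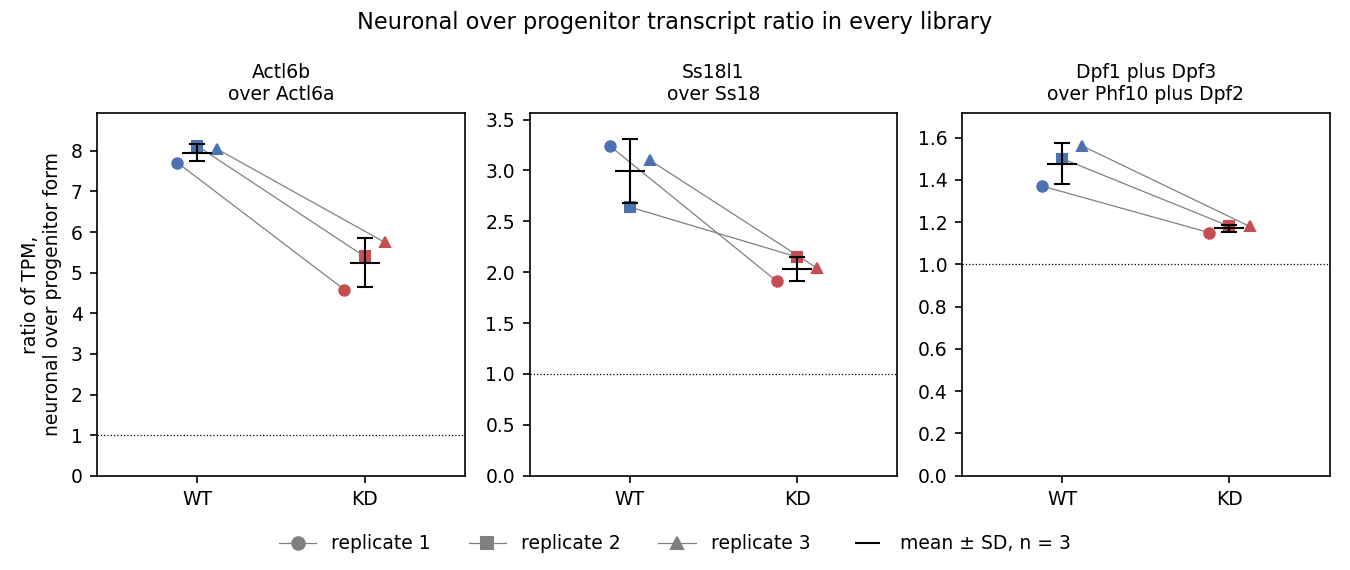
Ratio of neuronal to progenitor transcript levels (TPM, linear axis from 0) for 3 sets of paralogs, with points for libraries, lines joining libraries of the same number, bars for mean ± SD and a dotted line where both forms are equal. All KD points lie below all WT points, and all stay above 1.

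In order of level, WT libraries ran from Actl6b (234 ± 10.3 TPM) through Smarca4, Smarcb1, Dpf1, Ss18l1, Phf10, Dpf2, Actl6a and Ss18 to Dpf3. In that order Smarca4 and Smarcb1 overlapped, as did Ss18l1 and Phf10. In KD libraries Smarca4 (269.95 ± 20.4 TPM) and Smarcb1 (238 ± 12.4 TPM) came before Actl6b (229.6 ± 5.5 TPM), and Smarcb1 and Actl6b overlapped. Phf10 overlapped with Ss18l1 and Ss18l1 with Dpf2 in KD, although Dpf2 lay below Ss18l1 and Phf10 in all WT libraries.

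Markers of cell state also differed between the groups. Of 12 genes of cycling progenitors, 7 were called higher and 0 lower in KD, which is 58.3% of them beside 12% of all genes, with a median log2 difference of 0.44. Among them were the proliferation marker Mki67 (0.65 ± 0.13, SE) and the replication clamp Pcna (0.43 ± 0.06). The summed level of the list, 939 to 1235 TPM in KD, did not overlap with the 793 to 861 TPM in WT. With the replicate block 10 of the 12 were higher, and leaving out WT replicate 2 left 3. Over all genes the block gave 2539 higher and 2470 lower, and leaving out WT replicate 2 gave 779 and 797. Of 12 neuronal markers, 3 were higher (Neurod2, Dcx and Nefm) and 4 lower (Syt1, Mapt, Gap43 and Stmn2), which is 25.0% and 33.3% beside 12% and 11.9% of all genes, with a median of -0.06. Dcx stayed called whichever single library was left out. Nefm lost its call with each of them left out (edgeR adjusted p 0.0543 to 0.134), and Stmn2 with each but KD replicate 3 (0.0682 to 0.147). Leaving out KD replicate 2 also ended the calls of Neurod2 (0.0635), Mapt (0.0591) and Gap43 (0.0601), and leaving out WT replicate 2 ended those of Syt1 (0.0503) and Gap43 (0.0505). Of 5 cortical identity genes, Lhx2 was higher and 0 were lower, beside 12% and 11.9% of all genes. With the block 3 were higher, Lhx2, Neurod6 (edgeR adjusted p = 3.2e-07) and Tbr1 (0.0483). Leaving out WT replicate 3 or KD replicate 1 gave 2 higher, where 1612 and 1098 of all genes were higher. Of 6 glial genes, Olig1 was lower and 0 were higher, which is 16.7% beside 11.9% of all genes, with 314 to 419 TPM summed over the list in WT and 269.8 to 337 TPM in KD. With the block Olig2 was lower as well (0.0192). Without both replicate 2 libraries 0 genes of these 4 lists were called, and over all genes 135 were higher and 93 lower. The part of these differences in the values of the BAF genes was not tested.

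For the remaining subunits of the BAF family the calls were mixed. Of 21 other subunits, 5 were called higher and 2 lower, which is 23.8% and 9.52% of them, beside 12% and 11.9% of all genes. The median log2 difference was 0.13. The higher ones were Bcl7a (0.33 ± 0.06, SE), a subunit lost in some lymphomas, the paired scaffold subunits Smarcc2 (0.25 ± 0.05) and Smarcc1 (0.24 ± 0.06), Pbrm1 (0.24 ± 0.06), the bromodomain subunit of PBAF, and Bcl11a (0.23 ± 0.05), a zinc finger protein also known as a repressor of fetal globin. The lower ones were Actb (-0.25 ± 0.04), which serves in the complex beside Actl6a but chiefly forms the cytoskeleton, and Smarcd1 (-0.18 ± 0.04), a core subunit of the BAF60 family. Smarcc1 stood at 57.0, 58.2 and 63.45 TPM in WT replicates 1 to 3 and at 73.8, 78.05 and 67.2 TPM in KD replicates 1 to 3. With the replicate block 11 were higher and 2 lower, beside 2539 higher and 2470 lower of the 13669 genes tested. Leaving out WT replicate 2 gave 2 higher subunits, leaving out WT replicate 3 gave 9 and leaving out KD replicate 2 gave 3. Over all genes those 3 fits gave 779, 1612 and 884 higher. Among the genes named, leaving out WT replicate 2 ended the call of Smarcc1 (adjusted p = 0.0736), Bcl11a (0.0526), Pbrm1 (0.0592) and Smarcd1 (0.0692). Leaving out KD replicate 2 ended that of Smarcc1 (0.0756), Pbrm1 (0.0649) and Smarcd1 (0.0597). The call of Smarcc1 also went without WT replicate 1 (0.0596), and that of Pbrm1 without KD replicate 1 (0.0501).

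Among the regulators of the exchange, 9 of 12 listed genes were in the table and all 9 were tested. Of these, 3 were called higher and 0 lower, which is 33.3% of them higher beside 12% of all genes, with a median log2 difference of 0.17. With the replicate block 4 were higher, the fourth being the corepressor Sin3a (edgeR adjusted p = 0.0308). The block gave 2539 higher of the 13669 genes tested. Ptbp1, the splicing repressor of progenitors whose decline accompanies neuronal differentiation, had 63.5, 64.1 and 69.2 TPM in WT replicates 1 to 3 and 96.3, 83.3 and 85.5 TPM in KD replicates 1 to 3. Its log2 difference was 0.38 ± 0.06 (SE) with an edgeR adjusted p of 0.00449. Ptbp2, its neuronal paralog, was also higher (0.25 ± 0.04, adjusted p = 0.00446), at 133, 130.1 and 134 TPM in WT and 168, 163 and 158 TPM in KD. Rcor2, a corepressor that works with REST, was at 29.4, 26.4 and 35.0 TPM in WT and 51.5, 37.0 and 42.6 TPM in KD, a log2 difference of 0.46 ± 0.13 with an adjusted p of 0.0343. The Rcor2 call was lost without WT replicate 1 (0.0729), WT replicate 2 (0.124), KD replicate 1 (0.0917) or KD replicate 3 (0.0752). Rest, the repressor of neuronal genes that also silences miR-9 and miR-124, was at 5.31 ± 0.725 TPM in WT and 5.17 ± 0.612 TPM in KD (SD, n = 3) and was not called (adjusted p = 0.714).

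**Figure D4:**
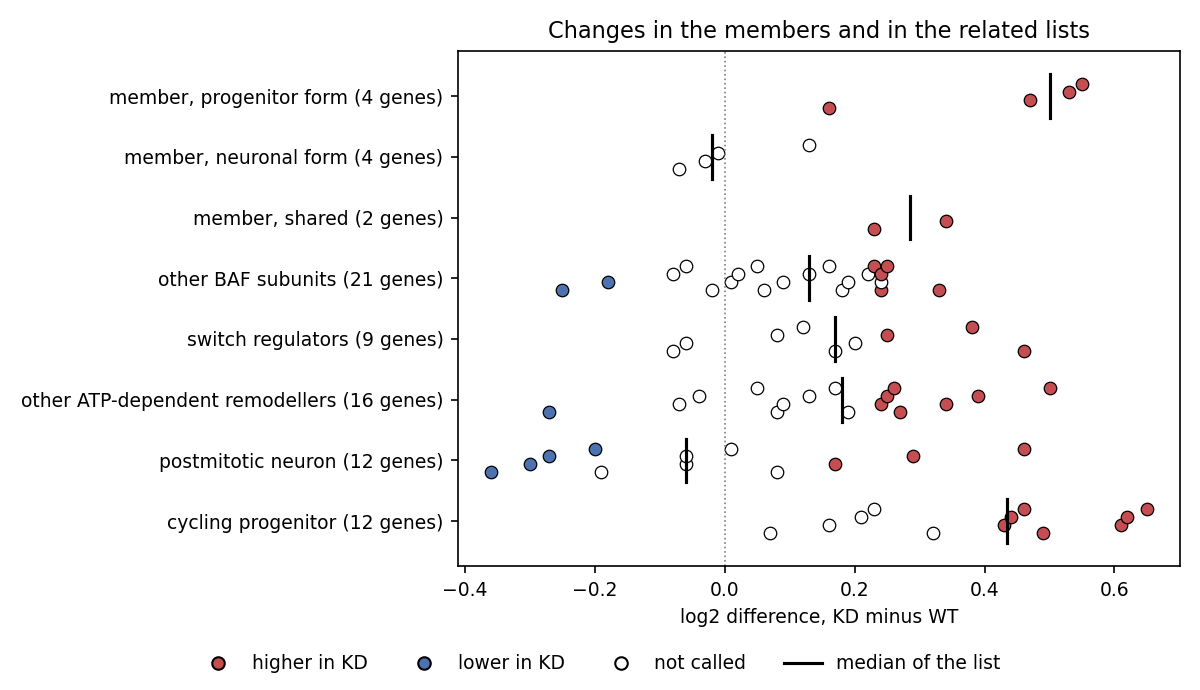
Log2 difference of KD minus WT for each tested gene of the 10 BAF switch and shared genes and of 5 related lists, 1 point per gene, filled where called higher or lower at an adjusted p of 0.05, with a bar at the median of each list. Medians lie at 0.50 for the progenitor forms, -0.02 for the neuronal forms and 0.44 for the cycling progenitor markers.

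As a description, the genes with patterns most like those of the leading paralogs were sought over the 6 libraries among 11433 genes with a mean of at least 5 CPM, by the root mean square difference of log2 CPM after centring each gene on its mean. For Actl6a they were Foxm1, a transcription factor of the G2 and M phases (0.029), Col11a1, a fibrillar collagen (0.034), and Dek, a chromatin protein (0.035). For Actl6b they were Flii (0.013), an actin-binding protein, Cpe (0.014), the neuropeptide-processing carboxypeptidase E, and Glt8d1 (0.015). Genes that barely vary resemble Actl6b by this measure, and 6 points that share libraries leave room for many near matches.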

How the data were processed

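The mRNA of cultured E13.5 mouse cortical cells was sequenced in 3 WT and 3 KD libraries, grouped and numbered by the sample titles. The deposited table calls the controls Ctrl, and each column was taken for the title with the same group and number. The submitters' processing notes name HISAT2 2.2.1, Bowtie2 2.4.5, RSEM 1.3.1 and the GRCm38 (mm10) build without their roles; the annotation, and whether counting used strand, are not given in the sources used here. The authors deposited an estimated count per gene, of which 89.3% to 89.9% per library were whole (within 0.001), and the authors' TPM values, which are scaled by transcript length. A further 12 columns (FPKM and group averages) were not used.

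Estimated counts were rounded and tested over 13669 of 17920 genes with edgeR 4.0.16 in R 4.3.3 (TMM scaling, filterByExpr with a minimum count of 10, quasi-likelihood F-test, Benjamini-Hochberg adjustment, threshold 0.05). The design had assumed counts, and rounding was the only adaptation. SE is the absolute log2 difference divided by the square root of F, and the 95% intervals use the moderated degrees of freedom. The coefficient of variation between libraries was 7.7%. Library totals were nearly equal. Replicates differed by more than sampling noise (chi-square per degree of freedom 4.59 to 9.05). Ratios were taken from TPM with no test.

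Same-numbered libraries deviated from their group means together (correlation over genes 0.351, 0.32 and 0.178, against -0.276 to -0.018 for different numbers), so the numbers pair the libraries, although what a number stands for is not given in the labels. Alternatives were 3 other scalings, 2 other filters, unrounded counts, DESeq2 1.42.0, limma 3.58.1 (voom, and trend on log2(TPM + 1)), a replicate block, leaving out each library and leaving out the second pair. Genes named are the 10 members, Ybx1, at most 8 called genes per related list and the 3 genes most like Actl6a and Actl6b; marker genes, Smarca2, Sin3a, Rest, Chd5, Mrpl47 and other genes overlapping members were named after their values were seen or as markers. The members and lists were chosen with earlier results of these data known. Promoters and miRNAs are from RefSeq and 3' UTRs from GENCODE, both on GRCm38. A host transcript of miR-9 and both host transcripts of miR-124 on the list of regulators were not analysed here. A further marker of the cortical identity list is not reported here.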

Additional observations from a re-analysis of the deposited data

How the results depend on the processing

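Of 170 values of the 10 genes under the alternatives, 147 kept their direction and side of the threshold, 17 kept the direction but lost the call and 6 changed sign; the latter belong to uncalled genes. These are Dpf1 (0.03 by limma-trend, 0.00 without KD replicate 3, range -0.05 to 0.00 on leaving out single libraries) and Ss18l1 (0.01 with total count scaling, 0.04 by limma-trend, range -0.04 to 0.04 on leaving out single libraries). No ratio changed direction or moved by more than its spread. With the replicate block, which pairs the libraries, 2539 genes were higher and 2470 lower, and 11 other BAF subunits were higher; the block changed the call of none of the 10 genes. limma-trend on log2(TPM + 1) gave 1072 lower genes, and 8 higher and 1 lower of the other BAF subunits. With both replicate 2 libraries left out, which is the fit without the second pair, the calls were 135 higher and 93 lower, with 1 of the 10 genes higher (1 progenitor form and 0 shared subunits). In that fit 0 other BAF subunits were higher and 0 lower, 0 switch regulators were higher, and 0 remodellers were higher and 0 lower. Leaving out single libraries gave 779 to 1612 higher and 797 to 1583 lower genes, with 4 to 5 of the 10 genes, 3 progenitor forms and 1 to 2 shared subunits higher. It gave 2 to 9 other BAF subunits higher and 1 to 2 lower, 2 to 4 switch regulators higher, and 2 to 7 remodellers higher. The lowest counts came without WT replicate 2. The cause of these shifts was not tested beyond the smaller number of libraries. Dpf3 had the fewest reads of the 10 genes and the widest interval, at 57 to 81 estimated counts per library.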

Other observations

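Other ATP-dependent remodellers, outside the BAF family, were counted for comparison. Of 16 genes, 7 were called higher and 1 lower in KD, which is 43.8% and 6.25% of them beside 12% and 11.9% of all genes, with a median log2 difference of 0.18. The higher genes were Hells (0.50 ± 0.12, SE), a helicase of proliferating cells needed for DNA methylation, Chd7 (0.39 ± 0.10), the CHARGE syndrome gene, the NuRD ATPases Chd3 (0.34 ± 0.05) and Chd4 (0.25 ± 0.06), Chd1 (0.27 ± 0.06), Atrx (0.26 ± 0.06), which deposits histone H3.3, and Smarca5 (0.24 ± 0.07), the ISWI ATPase of progenitors. Smarca1, the ISWI ATPase more abundant in differentiated neurons, was the lower one. It stood at 36.6, 35.6 and 35.4 TPM in WT replicates 1 to 3 and at 30.1, 31.9 and 30.1 TPM in KD replicates 1 to 3, a log2 difference of -0.27 ± 0.05 (SE) with an edgeR adjusted p of 0.0067. Smarca5 had 40.2, 42.0 and 40.5 TPM in WT and 55.9, 49.1 and 45.6 TPM in KD, with counts that were not whole in 5 of 6 libraries. Chd5, the neuronal NuRD ATPase, was at 60.1 ± 3.15 TPM in WT and 60.5 ± 1.45 TPM in KD (SD, n = 3) and was not called (adjusted p = 0.532). The count of higher genes was 2 without WT replicate 2, 3 without KD replicate 1 and 3 without KD replicate 2. It was 9 with the replicate block. Over all genes these fits gave 779, 1098, 884 and 2539 higher, in the same order. Chd3, Atrx and Smarca1 stayed called whichever single library was left out. The others lost their call on leaving out 1 or more libraries: Smarca5 for each library but KD replicate 3 (edgeR adjusted p 0.0703 to 0.0942), Chd1 without WT replicate 2 (0.0514) or KD replicate 2 (0.0537), Chd4 when WT replicate 2 (0.0966), KD replicate 1 (0.0645) or KD replicate 2 (0.0679) was left out, Chd7 without WT replicate 2 (0.0848) or any KD library (0.054 to 0.0756), and Hells without WT replicate 2 (0.0758) or KD replicate 1 (0.0597).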
